A study of Mus musculus with 28 samples.

Results

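The transcription factors that direct T helper lineages were followed as 9 genes in sorted regulatory T (Treg) cells, to ask whether a change after αPD1 + αGITR was particular to the Th1 factors. The members were the rows of the expression table named *Tbx21*, *Eomes* and *Stat4* for Th1, *Gata3* and *Stat6* for Th2, *Rora*, *Stat3* and *Maf* for Th17, and *Bcl6* for T follicular helper (Tfh) cells, 9 of 53801 features. All 9 symbols were found. The libraries came from C57BL/6 mice that carried the CT2A glioblastoma (GBM) line in the forebrain. The study used female and male mice, and the labels do not give the sex behind a library. Once tumors reached 2 mm3, mice received 4 doses of 250 µg, given every 3 days, of IgG2a isotype control or of αPD1 + αGITR, a combination of an antibody to the checkpoint receptor PD1 and an agonistic antibody to the costimulatory receptor GITR. Spleens and tumors were harvested 2 days after the last dose. The series text has each sample from a different mouse, whereas the published account counts fewer animals than there are splenic libraries, and label numbers recur within and between tissues. If libraries share an animal, p-values over them are too small. Treg cells were gated as TCR+CD4+CD25hi CD127lo with CD8+ cells sent to a dump channel, so activated conventional CD4 T cells that carry CD25 and have lost CD127 can enter this gate. The IgG2a group gave 7 splenic and 5 GBM libraries, and the αPD1 + αGITR group 8 and 7. A splenic library of the treated group, 1 of 28 labelled, was not analysed here.

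Naive CD4 T cells become helper cells of different kinds under cytokines that act through STAT proteins, and each kind is held in place by a lineage regulator. IL-12 acts through STAT4 to raise T-bet, the product of *Tbx21*, which drives interferon-γ and CXCR3. IL-4 acts through STAT6 to raise GATA3, IL-6 and IL-23 act through STAT3 with the RORα receptor and c-Maf in Th17 cells, and BCL6 governs Tfh cells. Treg cells can share these regulators while they keep Foxp3. T-bet and CXCR3 mark Treg cells at Th1 sites, GATA3 is used by Treg cells of barrier tissues, and STAT3 and c-Maf are used by Treg cells that restrain Th17 and Tfh responses. A Th1 factor in a Treg library is therefore not by itself a sign of a Th1 cell, and in bulk libraries more cells that express a gene and more RNA per cell cannot be told apart.

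The libraries varied widely. The number of genes above 1 TPM (an abundance per transcript length, scaled so that all libraries have a common total) ran from 7702 to 17460, the lowest in the GBM library tumor_369_a of the IgG2a group, and pairs of libraries had Spearman correlations between 0.486 and 0.736 over genes. *Foxp3* was at 21.5 TPM or higher in every library, and all 8 genes of the Treg and T cell identity list had a mean above 10 TPM in every group. The 11 macrophage and microglia markers summed to 49.4, 139.5 and 4341 TPM (lowest, median, highest) in GBM IgG2a libraries and to 36.1, 113.7 and 1852 TPM in treated GBM libraries, against at most 66.9 and 263 TPM in the 2 splenic groups. The highest sums were in the GBM libraries 79_a of IgG2a and 73_a of αPD1 + αGITR, and results in GBM are given without them where that changes the picture. The 7 CD8 and NK cell markers summed to a median of 22.6 TPM in IgG2a and 56.2 TPM in treated GBM libraries, with ranges of 7.33 to 40.5 and 10.1 to 80.6 TPM. Of these, *Cd8a* reached at most 6.15 TPM in any library, with means of 3.03 and 1.19 TPM in IgG2a and treated GBM libraries, while *Cd8b1* reached 36.3 TPM, with means of 6.18 and 11.5 TPM. The largest part of the sum was *Prf1*, the gene of perforin, with means of 11.97 and 30.45 TPM. The NK cell genes *Klrb1c* and *Ncr1* had means of 0.378 and 0.196 TPM after IgG2a and did not exceed 0.1 TPM after treatment. *Gzma* and *Klrk1* went the other way, from means of 0.364 and 0.876 TPM after IgG2a to 1.90 and 1.13 TPM. The highest *Gzma* in a treated GBM library was 11.86 TPM. The part of these other cell types in the results was not tested.

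The order of the 9 factors by mean level differed between spleen and GBM. In spleens after IgG2a *Stat3* was the most abundant with 80.3 ± 56.3 TPM (SD, n = 7), followed by *Gata3* with 37.2 ± 20.6, *Stat6* with 24.7 ± 17.3, *Stat4* with 14.7 ± 11.3, *Tbx21* with 9.78 ± 10.8 and *Rora* with 8.87 ± 7.14 TPM. *Maf*, *Bcl6* and *Eomes* were below 3 TPM on average, and no neighbours in this order were further apart than their SDs. In GBM after IgG2a *Stat3* was again the highest with 114.6 ± 75.1 TPM (SD, n = 5), *Tbx21* was the second with 71.0 ± 50.5 TPM, and *Maf* with 39.6 ± 58.1 and *Gata3* with 34.5 ± 12.7 TPM followed, with SDs that overlapped. The place of *Maf* rested on library tumor_369_a at 143 TPM, as the other 4 libraries ran from 4.7 to 19.4 TPM. In treated GBM libraries *Stat3* stood at 205 ± 48.0 TPM (SD, n = 7), *Tbx21* was also the second with 120.3 ± 37.2 TPM, and *Gata3* followed with 89.9 ± 34.6 TPM. *Stat6* with 43.9 ± 31.3, *Rora* with 41.4 ± 13.2, *Maf* with 27.1 ± 8.38 and *Stat4* with 26.01 ± 15.3 TPM came next, with SDs that overlapped from each to its neighbour. *Eomes*, a relative of T-bet best known from CD8 T and NK cells, and *Bcl6* stayed at 0.724 ± 1.68 and 0.691 ± 1.04 TPM, apart from the other 7 by more than their SDs. In every group these 2 genes were at low level, and *Eomes* was at 0 in 13 of the 27 libraries.

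**Figure D1:**
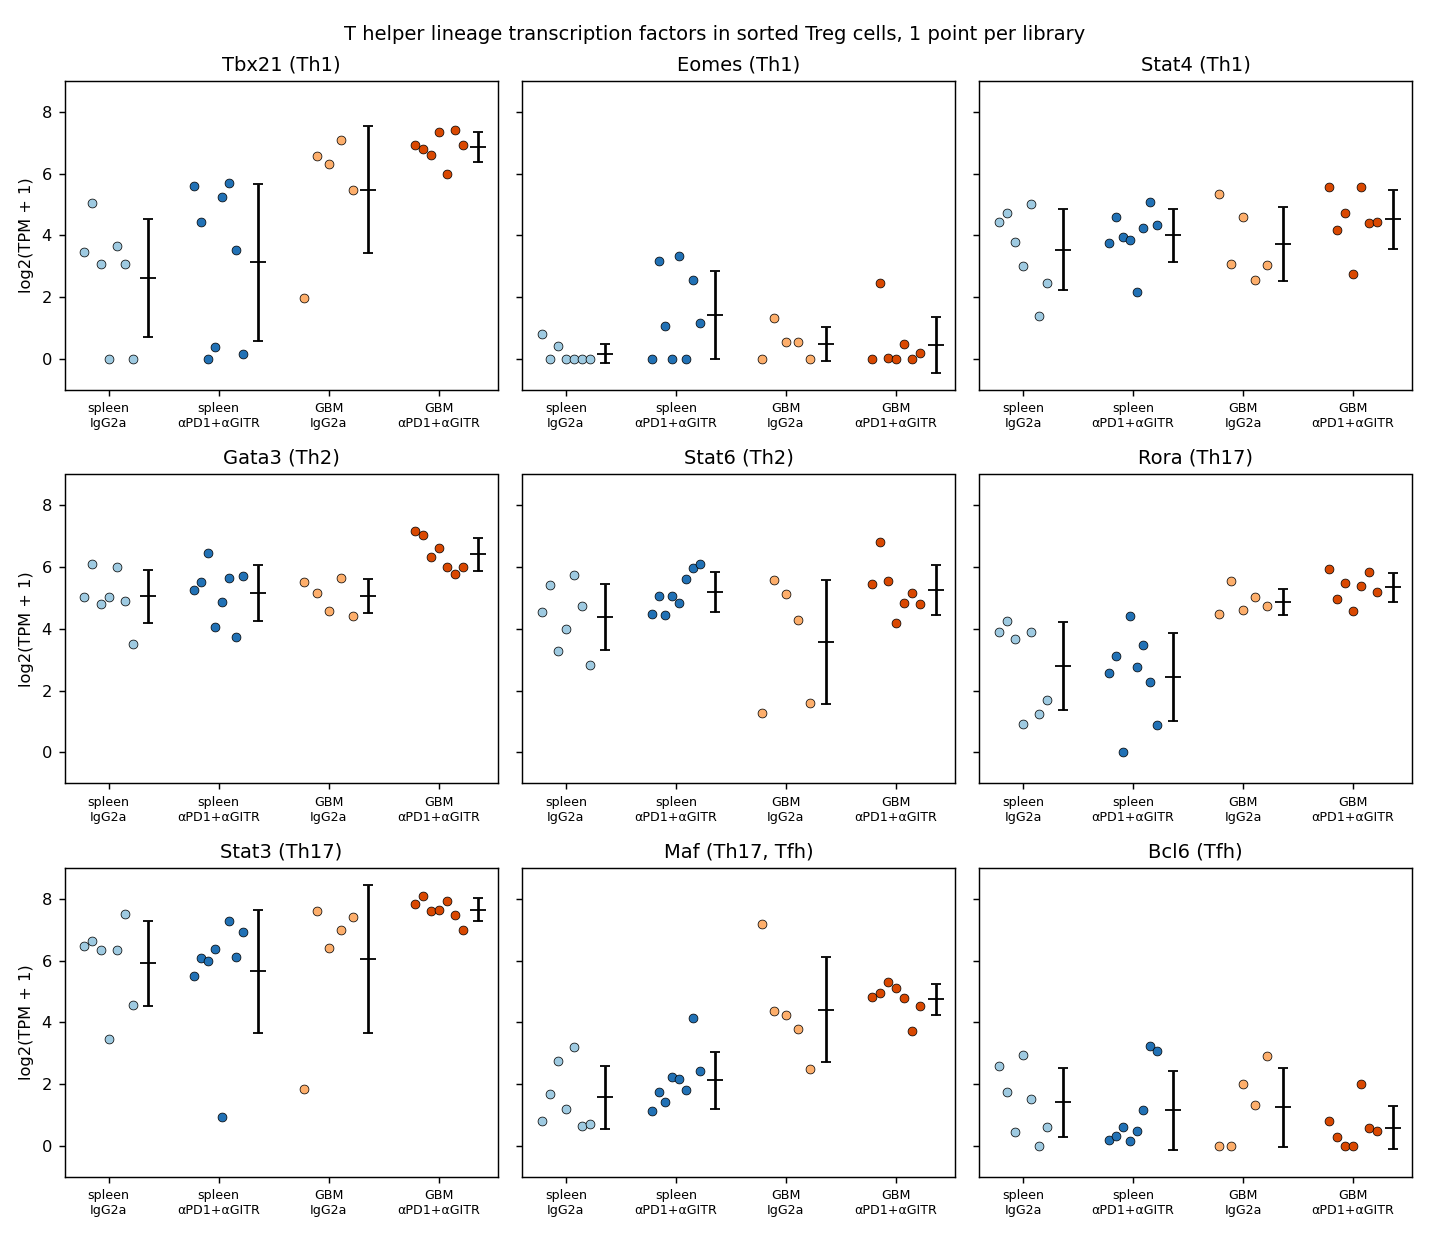
Level of each factor in each library as log2(TPM + 1), by tissue and treatment, with the mean ± SD beside each group of points. In GBM the treated points of *Gata3* all lie above the IgG2a points, while *Tbx21* and *Stat3* each have 1 low IgG2a point, library tumor_369_a, at 2.9 and 2.6 TPM.

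The regulatory sequence of 3 factors is shown because the question set by the design turns on *Tbx21* against factors of other lineages. Windows of 250 bases before the start site were taken from RefSeq on GRCm38.p6 and 10 were found, for 8 of the 9 members. *Tbx21* lies on chromosome 11 (97098071 to 97115331, minus strand), *Gata3* on chromosome 2 (9857078 to 9890034, minus strand) and *Bcl6* on chromosome 16 (23965052 to 23988852, minus strand), all protein coding. Of the members described without a sequence, *Rora* lies on chromosome 9 (68653786 to 69388246, plus strand), *Stat3* on chromosome 11 (100885098 to 100939540, minus strand) and *Maf* on chromosome 8 (115682942 to 115707794, minus strand). Windows are written 5′ to 3′ on the gene's strand, and capitals mark the letters of a motif. The search used the STAT pattern TTCNNNGAA, the GATA pattern AGATAA and the T-box pattern AGGTGTGA on both strands. The STAT pattern reads the same on either strand, and no match of 1 pattern contains a match of another.
Tbx21, chr11:97115332-97115581: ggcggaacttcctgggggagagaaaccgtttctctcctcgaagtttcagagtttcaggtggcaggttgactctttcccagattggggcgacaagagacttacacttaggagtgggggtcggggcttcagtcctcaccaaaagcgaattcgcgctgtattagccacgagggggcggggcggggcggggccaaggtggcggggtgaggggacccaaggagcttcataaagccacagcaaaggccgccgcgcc
Gata3, chr2:9878601-9878850: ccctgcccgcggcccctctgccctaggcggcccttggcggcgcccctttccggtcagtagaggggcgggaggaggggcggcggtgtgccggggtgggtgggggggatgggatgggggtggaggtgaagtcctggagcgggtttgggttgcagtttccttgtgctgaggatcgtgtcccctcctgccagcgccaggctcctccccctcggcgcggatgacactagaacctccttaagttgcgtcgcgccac
Bcl6, chr16:23988853-23989102: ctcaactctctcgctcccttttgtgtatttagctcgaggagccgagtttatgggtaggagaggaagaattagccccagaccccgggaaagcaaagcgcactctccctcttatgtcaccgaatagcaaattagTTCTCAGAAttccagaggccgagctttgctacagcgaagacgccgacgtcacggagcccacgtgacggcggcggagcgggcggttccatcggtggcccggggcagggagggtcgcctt
This window of *Bcl6* held 1 match of TTCNNNGAA, and another *Bcl6* window, chr16:23981284-23981533, where no transcript of the GENCODE annotation starts, held 3. At least 1 match is held by 7.02% of all 32851 windows of this length. None of the 3 patterns was found in the windows of *Tbx21* and *Gata3*. AGATAA was found in 9.99% of all windows and AGGTGTGA in 1.12%. The window of *Gata3* precedes an internal start site of the annotated gene. *Tbx21* and *Gata3* were rich in G and C, at 60.8% and 70% of the window. No binding was measured in these cells, so the matches describe letters alone.

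Treatment in GBM was compared first, between 7 libraries after αPD1 + αGITR and 5 after IgG2a. All 7 factors that passed the filter (a mean above 10 TPM in at least 1 group) were higher on average in treated Treg cells, by 0.34 to 1.68 on the log2(TPM + 1) scale, in each of the Th1, Th2 and Th17 groups, although *Rora* and *Maf* turned lower by 0.22 and 0.37 once libraries were scaled by TMM-type factors. None passed an adjusted p of 0.05 by limma, and neither did any of the 7848 genes tested (percent called 0), although 1749 genes (22.3%) had an unadjusted p under 0.05. At the looser rule of an unadjusted p under 0.05 with more than 2-fold change, 3 factors were called higher, *Gata3*, *Stat6* and *Stat3*, where 16.8% of all genes were called higher. *Tbx21* missed that rule. The 3 factors became *Gata3* alone with quantile normalization or without library tumor_369_a, where 6.64% and 10.9% of genes met it, and none with TMM-type factors (6.10%), and library weights called *Gata3* and *Stat4* (12.3%). *Tbx21* joined them, to make 4, with the number of genes detected as a covariate (18.4% of genes) or without any 1 of the IgG2a libraries 76_a, 77_a and 78_a (17.4 to 19.3%), while *Stat3*, *Stat6* or both left them without most other single libraries and *Gata3* stayed. The median of all genes tested was itself 0.62 higher in the treated group, and 5 of the 7 factors lay above it, so the factors' median of 1.35 is read against that shift. The most abundant feature took 17.2 to 34.3% of all TPM in IgG2a GBM libraries and 33.3 to 53.7% in treated ones, and its part was not tested. Of the genes called at the looser rule 77.5% were higher, and 43.9% with TMM-type factors or 46.4% with quantile normalization.

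Among the Th1 factors, *Tbx21* was at 94.4, 135, 79.1, 43.0 and 2.9 TPM in the IgG2a libraries 76_a, 78_a, 77_a, 79_a and tumor_369_a. The treated libraries ran from 62.2 over a median of 119.8 to 169 TPM, and 2 of 7 lay above every IgG2a library. The groups therefore overlapped, with library tumor_369_a far below the other IgG2a libraries. The log2 difference was 1.38 (SE 0.68, limma adjusted p = 0.238, two-sided exact permutation p = 0.0467, unadjusted, n = 7 and 5). Without library tumor_369_a it was 0.50 (adjusted p = 0.506), close to the median of all genes in that fit, which it exceeded by 0.13. Over its 22 alternatives the adjusted p ran from 0.159 to 0.747. *Stat4*, which carries the IL-12 signal, was at 7.4, 4.8, 23.0, 7.3 and 39.6 TPM in the same order of IgG2a libraries, and at 5.73, 20.6 and 46.7 TPM (lowest, median, highest) after treatment. Of the treated libraries 2 of 7 lay above every IgG2a library, and the log2 difference was 0.80 (SE 0.66, limma adjusted p = 0.457), or 1.20 (adjusted p = 0.309) without library tumor_369_a. *Eomes* was at 0 in 2 of 5 IgG2a and 3 of 7 treated libraries and above 1 TPM in 1 of each, and did not differ beyond the spread (exact permutation p = 0.962, n = 7 and 5).

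Of the Th2 factors, *Gata3* separated the groups. It was at 35.2, 48.7, 23.0, 20.6 and 45.1 TPM in the IgG2a libraries 76_a, 78_a, 77_a, 79_a and tumor_369_a, and ran from 54.3 over 80.04 to 142 TPM after treatment. Each of the 7 treated libraries lay above each of the 5 IgG2a libraries, a separation that 1.77% of the genes tested showed in this direction. The ratio of mean TPM was 2.60 and the log2 difference 1.35 (SE 0.47, 95% CI 0.37 to 2.32). The limma adjusted p was 0.138, and the exact permutation p of 0.00126 is the smallest that 5 libraries against 7 can give. Without library tumor_369_a the difference was 1.46 (adjusted p = 0.141), and without the 2 libraries with the most macrophage transcripts it was 1.15 (adjusted p = 0.195), an alternative chosen after the values were seen. With TMM-type factors, which bring the median gene to 0.05, the *Gata3* difference was 0.65 (adjusted p = 0.597), and over its 22 alternatives the adjusted p ran from 0.0541 to that value. *Stat6*, the transducer of IL-4, was at 47.4, 18.5, 34.3, 2.0 and 1.4 TPM after IgG2a in the same order, and at 17.3, 34.6 and 111 TPM (lowest, median, highest) after treatment. Only 1 treated library exceeded every IgG2a library. Its log2 difference of 1.68 (SE 0.76, limma adjusted p = 0.203, exact permutation p = 0.0795, n = 7 and 5) came down to 1.11 (adjusted p = 0.392) without library tumor_369_a and to 0.25 without the IgG2a libraries tumor_369_a and 79_a, an alternative chosen after the values were seen.

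Of the Th17 factors, *Stat3* was the most abundant. It was at 193, 125, 84.0, 169 and 2.6 TPM in the IgG2a libraries 76_a, 78_a, 77_a, 79_a and tumor_369_a, and at 125, 197 and 273 TPM (lowest, median, highest) after treatment. Of the treated libraries 5 of 7 lay above every IgG2a library. The log2 difference was 1.60 (SE 0.73, limma adjusted p = 0.209, exact permutation p = 0.0152, unadjusted, n = 7 and 5), and it was 0.55 (adjusted p = 0.389) without library tumor_369_a, within a range of 0.131 to 0.669 over 22 alternatives. *Rora*, the gene of the receptor RORα, was even across libraries, at 45.8, 31.8, 23.2, 25.7 and 21.4 TPM after IgG2a and 22.9, 40.6 and 59.7 TPM (lowest, median, highest) after treatment, and did not differ beyond the spread (log2 difference 0.46, SE 0.48, limma adjusted p = 0.549). *Maf* was at 19.4, 12.9, 17.8, 4.7 and 143 TPM after IgG2a and at 12.2, 27.4 and 38.1 TPM after treatment. Here library tumor_369_a was the highest of all 27 libraries, and the difference of 0.34 (SE 0.67, limma adjusted p = 0.767) became 1.03 (adjusted p = 0.292, the lowest of its 22 alternatives, which reached 0.996) without it. *Maf* is also a macrophage gene. Library 79_a, with the largest macrophage sum, had the lowest *Maf* of the GBM libraries, and tumor_369_a, with the highest *Maf*, had the second-largest macrophage sum of its group, 300.3 TPM. Without the 2 libraries with the most macrophage transcripts the *Maf* difference was -0.21 (adjusted p = 0.840), and the part of macrophages was not tested. *Bcl6*, the Tfh factor, was between 0 and 6.57 TPM after IgG2a and between 0 and 2.97 TPM after treatment (exact permutation p = 0.269, n = 7 and 5).

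Whether *Tbx21* moved more than factors of the other lineages was tested directly, on the difference between *Tbx21* and each of 6 factors within a library. In GBM that difference changed with treatment by 0.03 against *Gata3* on the log2 scale (exact permutation p = 0.982, n = 7 and 5), by -0.31 against *Stat6*, by 0.91 against *Rora*, by -0.23 against *Stat3* and by 1.04 against *Maf*. The largest was 2.03 against *Bcl6* (exact permutation p = 0.0480, adjusted p = 0.288 over the 6 differences), a gene near 0. None of the 6 passed the adjusted threshold, and the other 5 had adjusted p-values from 0.791 to 0.982. Within treated libraries *Tbx21* stood 0.44 ± 0.69 above *Gata3* and within IgG2a libraries 0.41 ± 2.24 (SD, n = 7 and 5), with library tumor_369_a the lowest. Without that library *Tbx21* went down against *Gata3* by 0.97 (exact permutation p = 0.0333, adjusted p = 0.200, n = 7 and 4), as *Gata3* then differed by 1.46 between the groups and *Tbx21* by 0.50. No excess of *Tbx21* over the factors of other lineages was detectable with these libraries. The wide spread does not show that the factors moved alike.

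**Figure D2:**
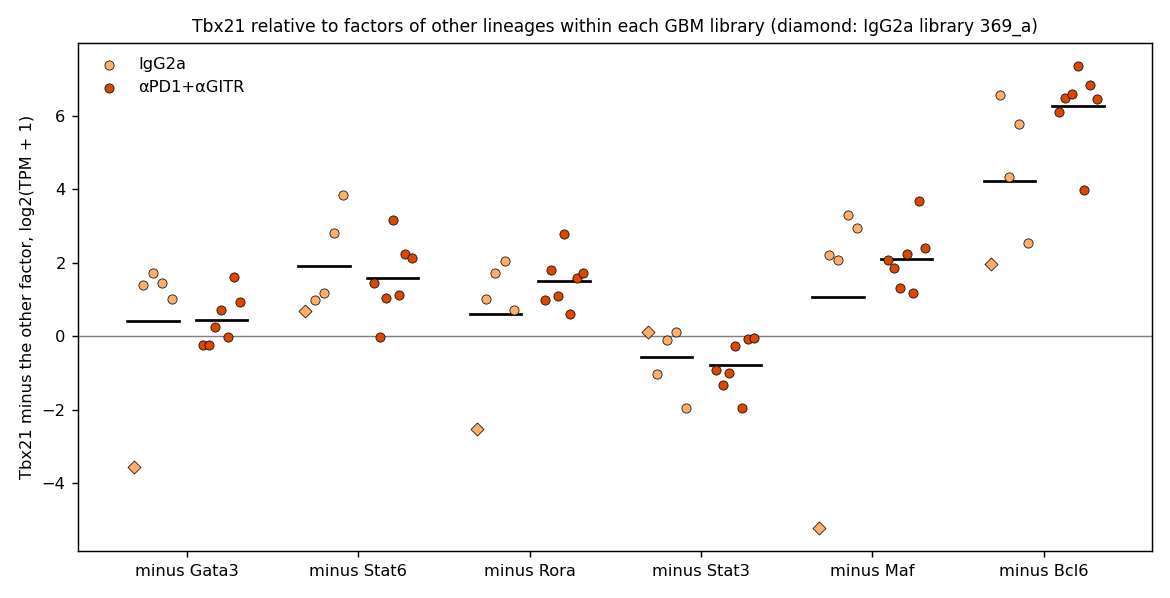
*Tbx21* minus each factor of another lineage within each GBM library on the log2(TPM + 1) scale, by treatment, with group means as bars. The IgG2a library tumor_369_a, drawn as a diamond, is the lowest point for *Gata3*, *Rora*, *Maf* and *Bcl6*, and the group means for *Gata3* differ by 0.03.

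Library tumor_369_a bore on several of these values. It had the fewest genes above 1 TPM of all libraries, it was low in *Tbx21*, *Stat3* and *Stat6* and high in *Maf* and *Stat4*, and its summed Treg identity markers were the highest of the IgG2a GBM libraries at 1999 TPM. *Gata3* was the factor whose difference in GBM moved least without it in proportion, from 1.35 to 1.46, with *Rora* going from 0.46 to 0.36.

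**Figure D3:**
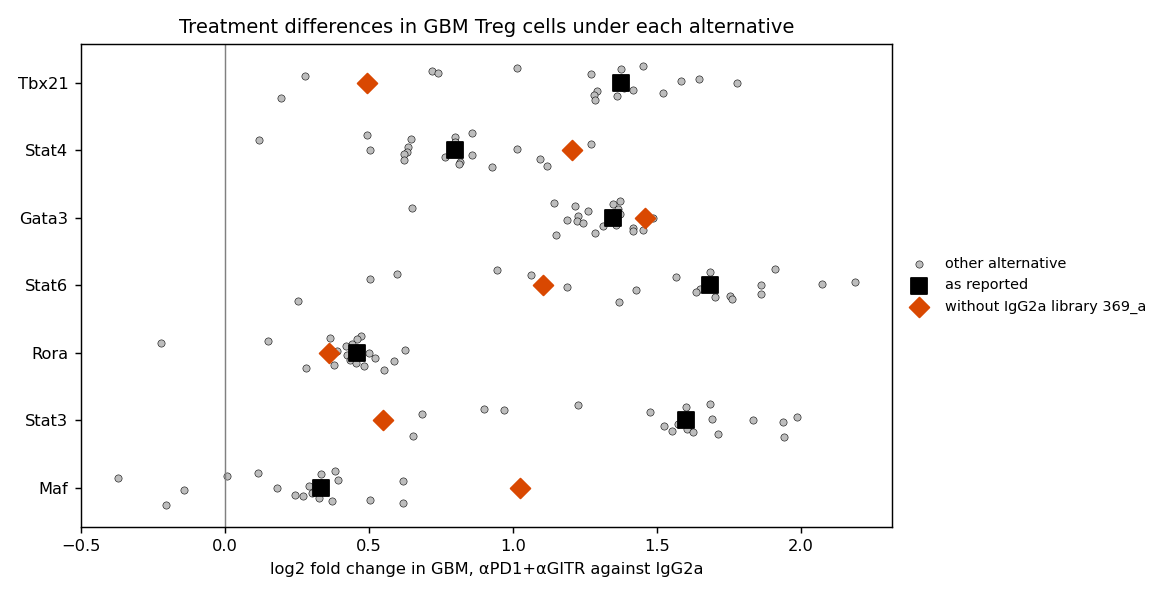
Log2 difference of each factor between treated and IgG2a GBM Treg cells as reported (square), without the IgG2a library tumor_369_a (diamond) and under each other alternative (small points). *Tbx21* and *Stat3* are at 0.50 and 0.55 without that library, *Maf* goes to 1.03 and *Gata3* to 1.46, while the leftmost small point of *Gata3*, at 0.65, is that of TMM-type factors.

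The genes around the factors were described by lists. Of 16 Th1 pathway genes 13 were tested in GBM, 10 were higher after treatment, as 71.6% of all genes were, and none passed the adjusted threshold. The looser rule called 3 of the 13, beside 16.8% of all genes, and the median was 0.65 beside 0.62 for all genes. These 3 were *Tnf*, an inflammatory cytokine (log2 difference 2.31, SE 0.79, limma adjusted p = 0.133), the chemokine receptor *Cxcr3*, a target of T-bet (1.82, SE 0.73, adjusted p = 0.173), and *Il12rb1*, a chain of the IL-12 receptor (1.72, SE 0.74, adjusted p = 0.190). Library tumor_369_a was at 1.4 TPM of *Cxcr3* and 0.84 TPM of *Il12rb1*. Without it *Tnf* alone met the rule among them (1.85, limma adjusted p = 0.221), with *Cxcr3* at 0.87 and *Il12rb1* at 0.68, beside 10.9% of all genes. *Tnf* passed the filter through the treated libraries alone, with means of 6.57 TPM after IgG2a and 25.3 TPM after treatment. Its being tested is tied to the direction, so these counts are not read against the shares of all genes. *Il12rb1* ran from 0.84 over 64.1 to 74.4 TPM after IgG2a and from 80.1 over 108.9 to 152 TPM after treatment, without overlap. Of all genes tested 1.77% separated in this direction. *Ifng*, the defining cytokine of Th1 cells, did not pass the filter, with at most 3.16 TPM after IgG2a and 5.41 TPM after treatment. Of 12 Th2 genes 7 were tested, 5 were higher and none passed the looser rule, with a median of 0.38, and without library tumor_369_a 1 passed it and the median was 0.41. Of 14 Th17 genes 6 were tested, 4 were higher and none was called, with a median of 1.02, and without that library all 5 tested were higher, 1 passed the looser rule and the median was 0.51. Of 14 Tfh genes 8 were tested, 3 were higher and none was called, with a median of -0.10, and without it 6 of 7 tested were higher, with a median of 0.28. *Il4*, *Il13* and *Il17a*, the defining cytokines of Th2 and Th17 cells, were at 0 in most libraries of every group, and *Il17a* reached 5.49 TPM in a treated GBM library.

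In splenic Treg cells, where 8 treated libraries were set against 7 of IgG2a, no factor that passed the filter was called with treatment. Of the 5 factors that passed the filter 4 were higher, none passed the adjusted threshold and none the looser rule, which 2.53% of the 6634 genes met. No gene passed the adjusted threshold by limma, and 168 had an unadjusted p under 0.05, of which 58.9% were higher, or 41.6% of the calls with TMM-type factors. *Tbx21* ran from 0 over 7.5 to 31.9 TPM after IgG2a and from 0 over 15.4 to 51.1 TPM after treatment (log2 difference 0.51, SE 1.01, adjusted p = 1.00). It was at 0 in 2 IgG2a libraries and 1 treated library, and 3 of the 8 treated spleens exceeded all IgG2a spleens. *Gata3* ran from 10.4 over 31.4 to 67.4 TPM and from 12.4 over 40.9 to 87.8 TPM, with a difference of 0.11 (SE 0.62). *Stat4* ran from 1.62 over 12.7 to 31.7 TPM and from 3.46 over 16.1 to 33.0 TPM, with a difference of 0.46 (SE 0.69). *Stat6* ran from 6.19 over 22.2 to 52.9 TPM and from 21.1 over 32.2 to 67.7 TPM. It had the largest difference of the tested factors, 0.82 (SE 0.62, exact permutation p = 0.0892, n = 8 and 7), and *Stat3* was lower by 0.26 (SE 0.80), which turned to 0.42 higher without the treated library 72_c, at 0.91 TPM the lowest *Stat3* of all. *Eomes* failed the filter but was above 1 TPM in 5 of 8 treated spleens, up to 9.05 TPM, and in none of the IgG2a spleens, where it reached 0.74 TPM (exact permutation p = 0.0542, unadjusted, n = 8 and 7). In a fit without the filter *Eomes* met the looser rule, which called 0.935% of genes higher. The summed CD8 and NK cell markers ran from 1.36 over 9.55 to 15.2 TPM in IgG2a spleens and from 7.49 over 13.2 to 51.3 TPM in treated spleens, and their part was not tested. *Rora*, *Maf* and *Bcl6* also failed it, and their differences lay between -0.36 and 0.56 (exact permutation p from 0.287 to 0.683, n = 8 and 7). None of the 6 within-library differences of *Tbx21* from another factor passed in spleen, with unadjusted exact permutation p-values from 0.388 to 0.970 (n = 8 and 7). Of the Th1 list 6 of 9 tested genes were higher, beside 58.1% of all genes, with a median of 0.21 beside 0.15 for all genes, and of the Tfh list 8 of 11 were, with *Pdcd1*, the gene of PD1, at the looser rule (1.70, SE 0.81, limma adjusted p = 1.00). The Th2 list had 6 of 6 tested genes higher and the Th17 list 3 of 5, with medians of 0.20 and 0.02 and none called.

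Whether treatment acted differently in GBM and spleen was tested by an interaction term in a fit of all 4 groups. None of the 7 factors tested passed, as no gene did of the 8687 (percent called 0) by limma, while 1056 genes (12.2%) had an unadjusted p under 0.05. The interaction was 1.24 for *Gata3* (SE 0.78, adjusted p = 0.538), 1.86 for *Stat3* (SE 1.18, adjusted p = 0.541) and 0.86 for *Tbx21* (SE 1.35, adjusted p = 0.821). Without library tumor_369_a it was 0.81 for *Stat3* and -0.018 for *Tbx21*, and without the treated spleen 72_c 1.18 for *Stat3*. Without the treated spleens 70_c or 80_a that of *Tbx21* was 0.41 or 0.44. The intervals were wide, from -0.34 to 2.81 for *Gata3* and from -1.87 to 3.59 for *Tbx21*, so the larger differences seen in GBM were not shown to differ from those in spleen.

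The clearest differences of the factors lay between tissues. After IgG2a, GBM Treg cells had more *Tbx21*, *Rora* and *Maf* than splenic Treg cells at the looser rule, which called 7.63% of all 7380 genes higher. None of the factors passed the adjusted threshold, which 42 genes did (percent called 0.569). With label numbers as a replicate block *Maf* alone met the looser rule, which then called 6.21% of genes higher. *Tbx21*, *Rora* and *Maf* passed the filter through GBM alone, since their splenic means were below 10 TPM, at 9.78, 8.87 and 2.77 TPM. Their being tested is therefore tied to the direction, and their count is not read against the share of all genes. *Tbx21* in the 5 GBM libraries, listed above, exceeded every splenic library in 4, and library tumor_369_a lay within the splenic range of 0 to 31.9 TPM. Its log2 difference was 2.87 (SE 0.99, adjusted p = 0.250, exact permutation p = 0.0366, n = 5 and 7), and 3.74 without library tumor_369_a (adjusted p = 0.0597, in a range of 0.00294 to 0.801 over 23 alternatives). *Rora* ran from 0.91 over 11.8 to 17.9 TPM in spleens, and each of the 5 GBM libraries, at 21.4 TPM and above, lay higher. Such a separation in this direction was seen for 1.25% of genes, a share that is not read against *Rora*, tested through GBM alone. The log2 difference of *Rora* was 2.08 (SE 0.85, limma adjusted p = 0.385, exact permutation p = 0.0126, n = 5 and 7). *Maf* ran from 0.56 over 1.3 to 8.25 TPM in spleens, and 4 of 5 GBM libraries lay above it (log2 difference 2.84, SE 0.93, limma adjusted p = 0.188, exact permutation p = 0.00505, n = 5 and 7). *Gata3*, *Stat3* and *Stat4* differed by 0.02, 0.14 and 0.18, less than the 0.48 of the median gene and below 0 with TMM-type factors, and *Stat6* by -0.79 (SE 0.90, limma adjusted p = 0.744). Without library tumor_369_a these were -0.098 for *Gata3*, 1.19 for *Stat3*, 0.47 above the median gene of that fit (adjusted p = 0.537), -0.23 for *Stat4* and -0.21 for *Stat6*.

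After αPD1 + αGITR, 4 factors rose in GBM against spleen at an adjusted p under 0.05, *Tbx21*, *Rora*, *Stat3* and *Maf*, of which *Tbx21* is a Th1 factor and the others serve Th17 cells. Of the 7506 genes 15.8% were called higher, and the median gene was 0.95 higher. *Rora* and *Maf*, with splenic means of 6.72 and 4.50 TPM, passed the filter through GBM alone, so the count of 4 is not read against that share. The higher share of calls at the looser rule was 84.3%, and 50.2% with TMM-type factors, against 76.8% and 52.9% between tissues after IgG2a. *Tbx21* ran from 0 over 15.4 to 51.1 TPM in treated spleens, and each of the 7 treated GBM libraries lay above all 8, with a log2 difference of 3.73 (SE 0.83, limma adjusted p = 0.00606, exact permutation p = 0.00109, n = 7 and 8). *Rora* ran from 0 over 5.38 to 20.5 TPM in spleens and did not overlap either, with a difference of 2.90 (SE 0.60, adjusted p = 0.00367). Such a separation in this direction was seen for 2.96% of genes, a share that is not read against *Rora*, tested through GBM alone. *Maf* ran from 1.17 over 3.0 to 16.8 TPM in spleens, and 6 of 7 GBM libraries lay above it (2.61, SE 0.54, limma adjusted p = 0.00360). *Stat3* ran from 0.91 over 67.7 to 156 TPM in spleens, with a difference of 2.00 (SE 0.68, limma adjusted p = 0.0444). That call was lost in 10 of the 15 fits that left out 1 library, with adjusted p-values up to 0.0839. The called differences of *Tbx21*, *Rora* and *Maf* held in all 15. With scaling by TMM-type factors, which lowered the median gene from 0.95 to 0.22, *Maf* alone remained called (adjusted p = 0.0328), with *Tbx21* at 0.0527 and *Rora* at 0.0652. Over 25 alternatives the adjusted p ran from 0.000773 to 0.0328 for *Maf*, from 0.000766 to 0.0597 for *Tbx21* and from 0.000437 to 0.0652 for *Rora*.

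*Gata3*, with a difference of 0.02 between tissues after IgG2a, was 1.25 higher in GBM after treatment (SE 0.49, limma adjusted p = 0.0671, exact permutation p = 0.00544, n = 7 and 8), 0.30 above the median gene. It passed the adjusted threshold in 2 of the 15 fits that left out 1 library, those without the treated spleens 70_c and 73_a, and its adjusted p ran from 0.0394 to 0.566 over 25 alternatives. In treated spleens it ran from 12.4 over 40.9 to 87.8 TPM, and 3 of 7 GBM libraries exceeded all of them. *Stat4* and *Stat6* differed by 0.52 and 0.07, below the median gene, and by -0.26 and -0.75 with TMM-type factors. *Eomes* and *Bcl6* failed the filter and were lower in GBM by 0.96 and 0.56 (exact permutation p = 0.143 and 0.315, n = 7 and 8). The 2 comparisons between tissues share no library, while each shares its GBM and its splenic libraries with a treatment comparison.

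**Figure D4:**
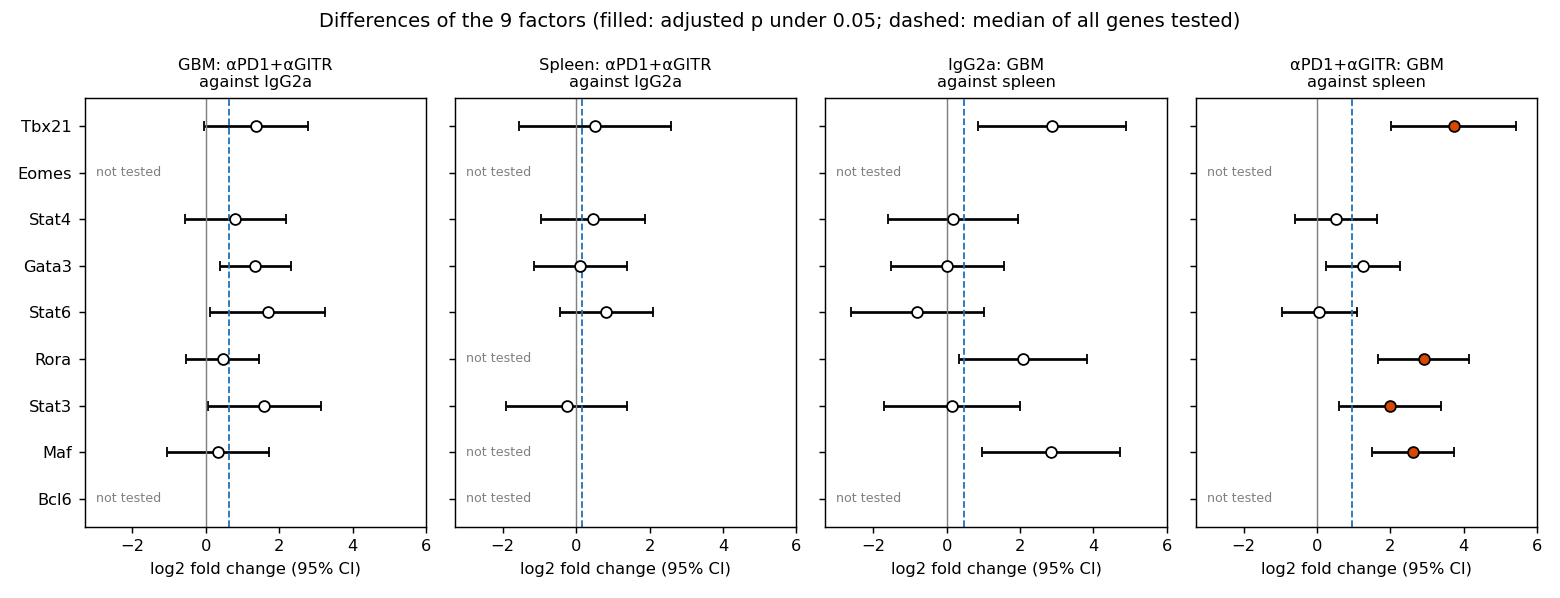
Log2 differences of the factors with their 95% confidence intervals in the 4 comparisons, with filled points for an adjusted p under 0.05 and a dashed line at the median of all genes tested. *Tbx21*, *Rora*, *Stat3* and *Maf* are filled between tissues after treatment, where the dashed line is at 0.95.

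Pathway genes of several lineages accompanied the factors between tissues. Here too a gene low in spleen was tested only where it was above the filter in GBM. The counts of genes higher in GBM, and their medians, are therefore not read against those of all genes. After treatment 9 of 13 tested Th1 genes rose at the adjusted threshold, beside 15.8% of all genes, with a median difference of 2.64 beside 0.95 for all genes, led by *Ifngr1*, a chain of the interferon-γ receptor (3.62, SE 0.45, limma adjusted p = 4.28e-05), and including *Havcr2*, the gene of TIM-3, and *Cxcr3*. Of 7 Th2 genes 4 rose, with a median of 1.71, among them the IL-33 receptor gene *Il1rl1* (3.52, SE 0.58, limma adjusted p = 0.000591) and the chemokine receptor gene *Ccr8* (4.49, SE 0.72, adjusted p = 0.000402), both known from tissue Treg cells. Of 5 Th17 genes none passed. Of 9 Tfh genes 2 rose, the receptors *Icos* and *Pdcd1*, and 2 fell, where 1.61% of genes were called lower, *Cxcr5*, which guides cells to follicles, and *Tcf7*, the gene of TCF-1. Beyond these lists, *Stat2*, a STAT gene that serves interferon signals, rose by 2.44 (limma adjusted p = 0.00193). After IgG2a 1 Th1 gene, *Ifngr1*, and 2 Tfh genes, *Icos* and *Pdcd1*, passed the adjusted threshold, and all 12 tested Th1 genes were higher in GBM, beside 66.1% of all genes, with a median of 1.84 beside 0.48 for all genes. In the same comparison 6 of 7 tested Th2 genes were higher, with a median of 1.51. At the looser rule 7 of the 12 Th1 and 3 of the 7 Th2 genes were called higher, beside 7.63% of all genes. Among the 7 were *Ccl5*, *Il12rb2* and *Havcr2*, with splenic means of 6.59, 1.14 and 0.686 TPM, which passed the filter through GBM alone. So did the 3 Th2 genes, *Ccr8*, *Il1rl1* and *Ccr4*, at 6.53, 1.69 and 8.69 TPM in spleen. Of 11 tested Tfh genes 3 were called higher and 3 lower, with a median of -0.08. Of 6 Th17 genes none was called higher and 1 lower, with a median of 0.37. Without library tumor_369_a *Ifngr1* missed the adjusted threshold (adjusted p = 0.0547), and the Th1 list had 2 other genes past it and the Th2 list 1.

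The factors did not vary as a block across libraries. After group means were taken off, Pearson correlations between pairs of factors over the 27 libraries ran from -0.32 for *Stat3* with *Maf* to 0.53 for *Tbx21* with *Rora*. Among 6224 genes the closest to *Tbx21* in these deviations were *Bud23* (r = 0.85), *Irf7* (r = 0.85) and *Spsb3* (r = 0.84), and the closest to *Gata3* were *Myc*, *Esyt1* and *Reep4* (r = 0.77, 0.76 and 0.72). These are descriptions, since all genes of a library share its depth and RNA quality. Correlations with the number of genes above 1 TPM, also after group means, lay between -0.36 for *Gata3* and 0.39 for *Stat6*. By annotation, exons of *Stat4* share 1033 bases with *Gm28177* on the same strand and exons of *Maf* share 440 bases with the antisense gene *Gm15655*, whose highest level was 24.04 TPM. The counting was not stated to use strand, so reads of these overlaps cannot be told apart.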

How the data were processed

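Treg cells from spleens and CT2A tumors were profiled by bulk RNA-seq with the Smart-Seq2 protocol. The authors aligned reads to mm10 with TopHat2 and calculated TPM with RSEM, whose versions and annotation are not given in the sources used here. The submitters' processing notes also name bcl2fastq. Values of 53801 features were deposited as TPM plus 1, and 1 was taken from each. Read depth is unknown, which leaves the spread between libraries as the measure of precision. Of 28 labelled libraries 27 were used, and 1 value column without a name was left out.

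The value log2(TPM + 1) was analysed with limma 3.58.1 in R 4.3.3 (lmFit, eBayes with an intensity trend) over the 2 groups compared. Genes with a mean above 10 TPM in at least 1 of them were tested, with two-sided p-values and Benjamini-Hochberg adjustment over all genes. Folds are on the log2(TPM + 1) scale, which understates the change of low genes. The looser rule was an unadjusted p under 0.05 with more than 2-fold change, after the study. Single factors were also compared by two-sided exact permutation tests, unadjusted, whose smallest p is 0.00126 for 5 libraries against 7 and 0.000155 for 7 against 8. The interaction was fitted over all 4 groups. The model was tested on simulated data.

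The named genes were the 9 members, and up to 4 genes of lowest p from each of 5 pathway lists, except that the defining cytokines were named for their roles. Some genes of these lists, and the counts of the list of further STAT genes, are not reported here. Members and lists were chosen with earlier results of these data known. By the series text each library came from a different mouse, though the published animal numbers are lower for spleens. Libraries with the same label in both tissues were not alike in their deviations from group means, which cannot exclude a shared animal. Labels that recur within a tissue were not checked in this way. Positions are from GENCODE vM21 on GRCm38, the assembly of mm10, matched by symbol. The comparisons were repeated with a pseudocount of 0.1 or 10, without the filter, with quantile normalization, TMM-type factors, the number of genes detected as a covariate, library weights, all 4 groups in 1 fit, a replicate block, and leaving out each library. Figures were drawn with matplotlib.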

Additional observations from a re-analysis of the deposited data

Results flagged for a closer look

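Of 36 groups of a factor's values, 6 held a library far from the others by Dixon's criterion, which chance meets in about 1 of 20 groups. *Eomes* was at 4.51 TPM in the treated GBM library 70_b, where the other 6 were at 0.40 TPM or lower, and that library also had the highest summed CD8 and NK cell markers of its group, 80.6 TPM, whose part was not tested. *Stat3* was at 2.6 TPM in the IgG2a GBM library tumor_369_a. *Stat4* and *Stat3* were at 3.46 and 0.91 TPM in the treated splenic library 72_c, the lowest of their group. *Maf* was at 16.8 TPM in the treated splenic library 74_a, and *Bcl6* at 2.97 TPM in the treated GBM library 73_b, each the highest of its group. The values of the treatment comparison without library tumor_369_a, and of *Stat3* in spleen without library 72_c, stand beside those results.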

How the results depend on the processing

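In this paragraph and the next a call means an adjusted p under 0.05. No factor was called so for treatment in GBM or spleen, or for the interaction, under any alternative. Between tissues after IgG2a, where none was called, 2 were with library weights and 1 with all 4 groups in 1 fit, where 262 and 140 of 7380 genes were called in place of 42. After treatment, 4 became 2 without the filter (256 of 42667 genes) and 1 with TMM-type factors (600 of 7506 genes), whose scaling removes much of the median shift. Libraries with the same label in both tissues had correlations of -0.16 to 0.18 in their deviations from group means, which cannot exclude a shared animal. With a replicate block *Stat3* was no longer called after treatment while *Tbx21*, *Rora* and *Maf* were, and the count of genes called was 495 in place of 1310, and 2 in place of 42 after IgG2a, where *Maf* alone of the factors met the looser rule. With the replicate block *Gata3* and *Stat3* after IgG2a were -0.29 and -0.11. 

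Other values that turned direction were all of uncalled factors, and the cause was not tested. In GBM, TMM-type factors gave -0.22 for *Rora* and -0.37 for *Maf*, and *Maf* was -0.21 without the macrophage-high tumors. In spleen, *Gata3* was -0.12 with quantile normalization and -0.088 with TMM-type factors, and *Stat3* 0.090 with the covariate. Between tissues after IgG2a, quantile normalization gave -0.74 for *Stat4* and -0.69 for *Gata3*. TMM-type factors gave -0.051 for *Stat4*, -0.28 for *Gata3* and -0.22 for *Stat3*. Library weights gave -0.35 for *Stat4*, -0.013 for *Gata3* and 0.34 for *Stat6*. A pseudocount of 10 gave -0.012 for *Gata3*. Without libraries tumor_369_a and 79_a *Stat4* was -0.14 and *Stat6* 0.64, and without the macrophage-high tumors *Stat3* was -0.20. After treatment, *Stat4* and *Stat6* were -0.24 and -0.57 with quantile normalization and -0.26 and -0.75 with TMM-type factors. The interaction of *Tbx21* was -0.16, -0.021, -0.19 and -0.32 with quantile normalization, TMM-type factors, library weights and without tumor_369_a and 79_a. That of *Stat6* was -0.016 with quantile normalization, -0.19 with library weights and -0.57 without both libraries, that of *Stat4* -0.19 with TMM-type factors, and that of *Maf* 0.17 with library weights and 0.056 without both libraries. With a pseudocount of 10, *Tbx21* minus *Gata3* and minus *Stat6* were -0.13 and 0.068 in GBM, and minus *Maf* 0.28 in spleen.

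Leaving out 1 library at a time gave, lowest to highest, -0.14 to 1.03 for *Maf* in GBM. In spleen it gave -0.15 to 0.31 for *Gata3*, -0.66 to 0.42 for *Stat3*, 0.077 to 0.96 for *Tbx21* and 0.096 to 0.72 for *Stat4*. Between tissues it gave -0.24 to 0.19 for *Gata3*, -0.27 to 1.19 for *Stat3* and -0.23 to 0.47 for *Stat4* after IgG2a, and -0.19 to 0.24 for *Stat6* after treatment. The interaction ran from -0.018 to 1.30 for *Tbx21* and from -0.70 to 0.46 for *Maf*. In GBM, *Tbx21* ran from -0.97 to 0.36 against *Gata3*, -0.53 to 1.60 against *Maf* and -0.61 to 0.18 against *Stat6*. Against *Rora* it ran from 0.13 to 1.28 and against *Stat3* from -0.57 to -0.032. In spleen it ran from -0.026 to 1.04 against *Gata3*, -0.77 to 0.24 against *Stat6*, -0.21 to 1.38 against *Stat3* and -0.55 to 0.42 against *Maf*.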
